A study of Homo sapiens with 6 samples.

Results

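The genes that make, store, take up and break down noradrenaline and acetylcholine were followed in BE(2)-C cells. BE(2)-C is a human cell line from a neuroblastoma, a tumour of the sympathetic lineage; it carries amplified MYCN and takes on a more neuronal form in all-trans retinoic acid (ATRA). The series compares 3 samples transfected with an siRNA against PCIF1 (siPcif1 + ATRA) with 3 samples given a scrambled siRNA (siScram + ATRA). Transfection lasted 24 h in both groups, and all 6 samples then received 10 µM ATRA for 4 days, so no group without ATRA enters the comparison. A single siRNA product was used in each group, in a single cell line. PCIF1 is the methyltransferase that places m6Am beside the mRNA cap. The 10 genes were listed by name: TH, DDC, DBH, GCH1, SLC6A2, SLC18A1, SLC18A2, SLC18A3, CHAT and MAOA. Of these, 9 have a row among the 13885 genes of the authors' deposited table, and SLC18A2 was not analysed here. The table is a DESeq2 comparison with 1 mean over all samples, 1 log2 fold change and 1 standard error (SE) per gene; values and depth per library were not analysed here. The labels do not state whether the replicates were grown as separate cultures, so the p-values reflect sample-to-sample spread that may be technical. In whole cultures, fewer cells of a kind and less RNA per cell cannot be told apart.

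Noradrenaline is made from tyrosine in steps. Tyrosine hydroxylase (TH) makes L-DOPA with the cofactor tetrahydrobiopterin, whose synthesis begins with GCH1, then DDC makes dopamine, and DBH turns dopamine into noradrenaline inside the vesicle. The vesicular monoamine transporters SLC18A1 and SLC18A2 fill the vesicle, SLC6A2 takes released noradrenaline back into the cell, and MAOA oxidises it on the outer mitochondrial membrane. Acetylcholine is made by CHAT and loaded by SLC18A3. SLC18A3 lies within an intron of CHAT, an arrangement known as the cholinergic gene locus. Sympathetic neurons start as noradrenergic cells, and some of them take on the cholinergic set.

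RefSeq promoter entries (GRCh38.p14, 250 bases before to 50 after an annotated start) were examined for 6 of the 10 genes. SLC18A1 entries were not analysed here. Those of SLC18A3 and MAOA are shown because these genes had the lowest and the highest deposited fold change of the 9, that of DBH as a noradrenergic synthesis gene that did not pass the test, and that of SLC18A2 as the vesicular transporter gene with no value here. Capitals mark each match, on either strand, to TGACGT (the core of the cyclic AMP response element) or GGGCGG (the GC box); TATAAA was searched too and had no match in the 4 entries.
SLC18A3, chr10:49610060-49610359, plus strand: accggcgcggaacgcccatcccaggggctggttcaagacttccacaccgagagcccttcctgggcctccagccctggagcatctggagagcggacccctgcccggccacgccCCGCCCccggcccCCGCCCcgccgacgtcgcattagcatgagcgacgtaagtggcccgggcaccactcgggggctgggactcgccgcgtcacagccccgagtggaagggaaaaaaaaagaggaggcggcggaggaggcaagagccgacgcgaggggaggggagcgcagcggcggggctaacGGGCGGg
MAOA, chrX:43656049-43656348, plus strand: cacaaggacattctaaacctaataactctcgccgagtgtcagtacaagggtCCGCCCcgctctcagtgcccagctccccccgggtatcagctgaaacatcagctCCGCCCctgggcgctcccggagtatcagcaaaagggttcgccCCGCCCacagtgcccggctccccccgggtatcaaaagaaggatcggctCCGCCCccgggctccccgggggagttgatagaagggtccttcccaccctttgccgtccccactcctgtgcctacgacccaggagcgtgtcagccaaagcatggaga
DBH, chr9:133636113-133636412, plus strand: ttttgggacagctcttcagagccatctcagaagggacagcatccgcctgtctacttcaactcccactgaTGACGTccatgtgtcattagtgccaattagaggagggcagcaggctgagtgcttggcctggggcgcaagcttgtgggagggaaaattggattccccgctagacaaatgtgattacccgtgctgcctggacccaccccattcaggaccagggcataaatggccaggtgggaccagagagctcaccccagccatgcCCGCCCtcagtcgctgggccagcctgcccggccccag
SLC18A2, chr10:117240864-117241163, plus strand: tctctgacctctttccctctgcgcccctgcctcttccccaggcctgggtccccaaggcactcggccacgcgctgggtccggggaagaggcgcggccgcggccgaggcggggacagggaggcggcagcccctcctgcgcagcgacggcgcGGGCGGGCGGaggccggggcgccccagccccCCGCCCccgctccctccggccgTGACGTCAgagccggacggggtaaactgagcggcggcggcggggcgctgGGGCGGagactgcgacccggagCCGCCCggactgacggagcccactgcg
The SLC18A3 entry holds 3 GC boxes, at -138, -125 and 44, and no TGACGT; a position is that of the first base of the match, counted from 1 at the annotated start and from -1 before it. In the MAOA entry 4 GC boxes begin at -199, -146, -104 and -56, each read as CCGCCC. DBH has TGACGT at -181 and a GC box at 14. The SLC18A2 entry has TGACGT on both strands, overlapping at -48 and -46, and 5 GC boxes, of which 2 overlap. Of the 35116 entries of the RefSeq table, 7.98% hold TGACGT, 45.0% hold GGGCGG and 11.5% hold TATAAA, so a GC box is common among promoters. These matches describe the letters and say nothing of which factor binds. DDC has 2 entries and CHAT 3, reflecting alternative starts, with no TGACGT in any of them.

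The sign of every fold change is siPcif1 + ATRA over siScram + ATRA, as read from PCIF1 itself, because the header does not state it. PCIF1 stood at -0.82 (SE 0.19; adjusted p = 0.000167 by DESeq2) per the authors' deposited table. The name of the table gives the groups in the opposite order, and read that way all signs below would turn. The 9 transmitter genes did not move as a block. Per the authors' deposited table, SLC6A2, SLC18A1 and MAOA rose (3 of 9), SLC18A3 fell (1 of 9) and the other 5 did not pass a DESeq2 adjusted p of 0.05. Among all 13885 genes 34.0% passed, 16.3% as higher and 17.7% as lower, so the 4 passing genes, 44.4% of the 9, are read against that background and are not taken as a property of the group. The median log2 fold change of the 9 was 0.0011 per the authors' deposited table, beside 0.0059 for all genes. The Wald statistics of all genes had a robust SD of 2.44; divided by it, they left 135 genes passing and 0 of these 9, with 4 of the 9 under an unadjusted DESeq2 p of 0.05 before that scaling.

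**Figure D1:**
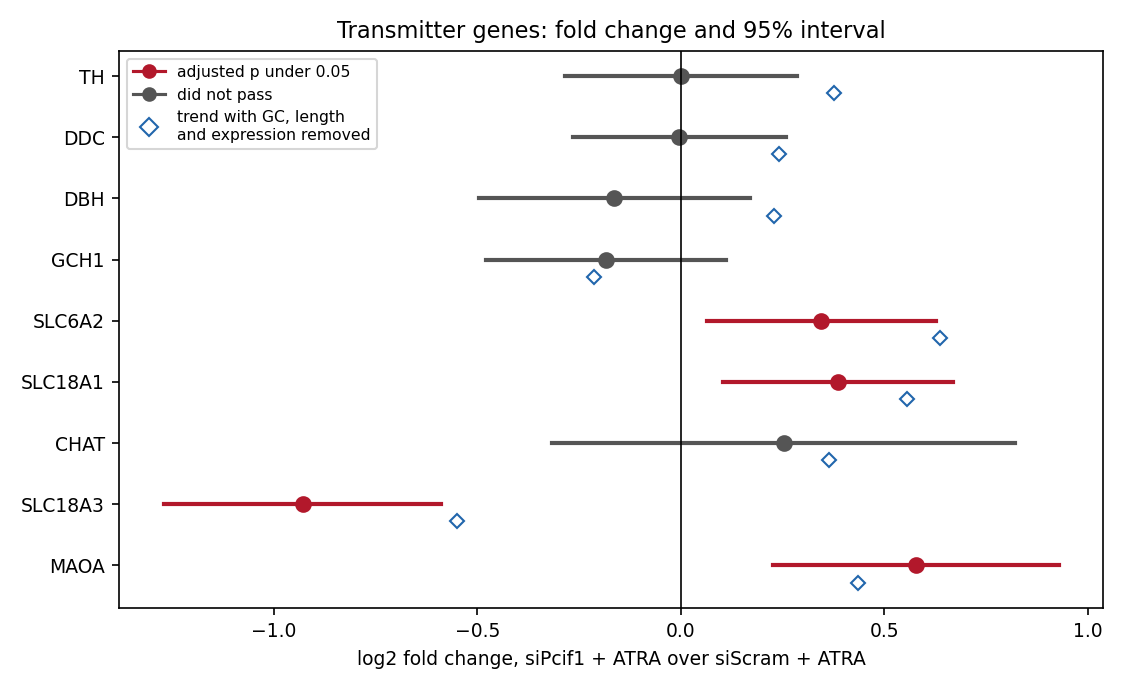
Log2 fold change (siPcif1 + ATRA over siScram + ATRA) of the 9 genes with a row, with 95% intervals from the SE; red marks an adjusted p under 0.05, and open diamonds give the value after the trend with GC, exon length and expression was removed. The intervals of SLC6A2, SLC18A1 and MAOA lie above 0, that of SLC18A3 lies below 0, and the others span 0.

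The synthesis enzymes of noradrenaline showed no change that passed the test. TH, which catalyses the rate-limiting step, had a mean normalised count of 637 over the 6 samples and a log2 fold change of 0.0011 (SE 0.15; adjusted p = 0.996 by DESeq2) per the authors' deposited table. Its interval ran from 82.1 to 122% of the siScram + ATRA level, so larger changes of TH in either direction lie outside it. TH (ENSG00000180176.14) lies on chromosome 11, minus strand, from 2163929 to 2171877 in GRCh38 by GENCODE 29.
DDC, the decarboxylase, had a mean of 3011 and stood at -0.0035 (SE 0.13; adjusted p = 0.987 by DESeq2) per the authors' deposited table, with an interval of 83.2 to 120% of the siScram + ATRA level. Both genes therefore sat in the middle of all fold changes, at the percentiles 49.7 for TH and 49.4 for DDC. DBH, the vesicular hydroxylase, had a mean of 3014 and stood at -0.16 (SE 0.17; adjusted p = 0.489 by DESeq2) per the authors' deposited table. GCH1, the first enzyme of cofactor synthesis, had a mean of 701 and stood at -0.18 (SE 0.15; adjusted p = 0.364 by DESeq2) per the authors' deposited table. Of the 4 synthesis genes, 0 passed by DESeq2 and 0 had an unadjusted p under 0.05. DDC (ENSG00000132437.17) lies on chromosome 7 from 50458436 to 50565457, DBH (ENSG00000123454.11) on chromosome 9 from 133635348 to 133659344 and GCH1 (ENSG00000131979.18) on chromosome 14 from 54842008 to 54902852.
TH was the synthesis gene whose call depended on an adjustment for gene features. Its main transcript has a GC content of 65.7%, and after the trend of fold change with GC content, exon length and mean count over all genes was taken out of the fold changes of the authors' deposited table TH stood at 0.38, with a recomputed DESeq2 adjusted p of 0.0419. DDC and DBH changed sign under the same step, to 0.24 and 0.23, and did not pass (recomputed DESeq2 adjusted p of 0.180 and 0.349). Here and below, a recomputed DESeq2 adjusted p is from a normal test on the authors' DESeq2 values. DESeq2 itself was not run again.

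Noradrenaline uptake and vesicular storage were represented by SLC6A2 and SLC18A1, and both rose. SLC6A2, the noradrenaline transporter of the plasma membrane and the carrier used for MIBG imaging of neuroblastoma, had the highest mean of the 9 genes, 3587 normalised counts, rank 266 of 13885. Its log2 fold change was 0.35 (SE 0.14; adjusted p = 0.0478 by DESeq2) per the authors' deposited table. That is 127% of the siScram + ATRA level, with an interval of 105 to 154%, and the mean and fold change together imply about 4014 normalised counts with siPcif1 + ATRA against 3160 with siScram + ATRA. The call lay at the edge of the threshold: with all fold changes centred on their median its recomputed DESeq2 adjusted p was 0.0522. SLC6A2 (ENSG00000103546.18) lies on chromosome 16 from 55655604 to 55706192, and 17.9% of its exon bases are shared with AC136621.1, an uncharacterised locus annotated on the same strand.
SLC18A1, the vesicular monoamine transporter best known from chromaffin cells, had a mean of 584 and stood at 0.39 (SE 0.14; adjusted p = 0.0263 by DESeq2) per the authors' deposited table. This is 131% of the siScram + ATRA level (interval 107 to 159%), or about 661 implied normalised counts with siPcif1 + ATRA against 506 with siScram + ATRA. SLC18A1 (ENSG00000036565.14) lies on chromosome 8 from 20144855 to 20183206. With the trend with GC, exon length and expression taken out of the fold changes of the authors' deposited table, SLC6A2 stood at 0.64 and SLC18A1 at 0.55, with recomputed DESeq2 adjusted p of 0.000133 and 0.0012. Neither change exceeded an absolute log2 change of 0.3 by test (recomputed DESeq2 adjusted p of 1 for both).
SLC18A2, the form of most monoamine neurons, has no row in the table analysed here, which says nothing of its level; 52.0% of its exon bases are shared with PDZD8 on the opposite strand, and whether reads were counted by strand is not stated in the sources used here.

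SLC18A3, the vesicular acetylcholine transporter, showed the largest deposited fold change of the 9 genes in size, and the only fall that passed the test. Its mean was 478 normalised counts and its log2 fold change -0.93 (SE 0.17; adjusted p = 1.62e-06 by DESeq2) per the authors' deposited table. The siPcif1 + ATRA level was 52.5% of the siScram + ATRA level, with an interval of 41.5 to 66.5%, or about 329 implied normalised counts with siPcif1 + ATRA against 626 with siScram + ATRA. A total of 545 genes of the table had a lower fold change. The fall also passed a test against an absolute log2 change of 0.3 (recomputed DESeq2 adjusted p of 0.00528). SLC18A3 has the most GC-rich main transcript of the 9, at 67.2%; with the trend removed its value, computed from the authors' deposited table, was -0.55, with a recomputed DESeq2 adjusted p of 0.00987, and it was then no longer the largest in size, since SLC6A2 stood at 0.64. SLC18A3 (ENSG00000187714.6) is a single-exon gene on chromosome 10 from 49610301 to 49612720.
CHAT, the choline acetyltransferase, was measured with little precision. Its mean of 13.8 normalised counts was close to the lowest listed, 7.01, and its log2 fold change was 0.25 (SE 0.29; adjusted p = 0.542 by DESeq2) per the authors' deposited table. The interval of CHAT, 80.4 to 177% of the siScram + ATRA level, is wide and includes no change. The deposited values may be shrunken toward 0, so this interval may still be too narrow. Estimated without shrinkage, CHAT stood at 0.42 or 0.62. The difference between CHAT and SLC18A3 was not tested. CHAT (ENSG00000070748.18) spans chromosome 10 from 49609095 to 49665104 on the same strand as SLC18A3, and the 2 genes share 0 exon bases in GENCODE 29.

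MAOA, the monoamine oxidase that prefers noradrenaline and serotonin, rose. Its mean was 155 normalised counts and its log2 fold change 0.58 (SE 0.18; adjusted p = 0.00613 by DESeq2) per the authors' deposited table. This is 149% of the siScram + ATRA level with an interval of 117 to 190%, or about 186 implied normalised counts with siPcif1 + ATRA against 124 with siScram + ATRA. Once the trend with GC, exon length and expression was removed, the value of MAOA computed from the authors' deposited table was 0.44 with a recomputed DESeq2 adjusted p of 0.0562, so its call was lost and it lay below SLC6A2 (0.64) and SLC18A1 (0.55). MAOA (ENSG00000189221.9) lies on chromosome X from 43654907 to 43746824.

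**Figure D2:**
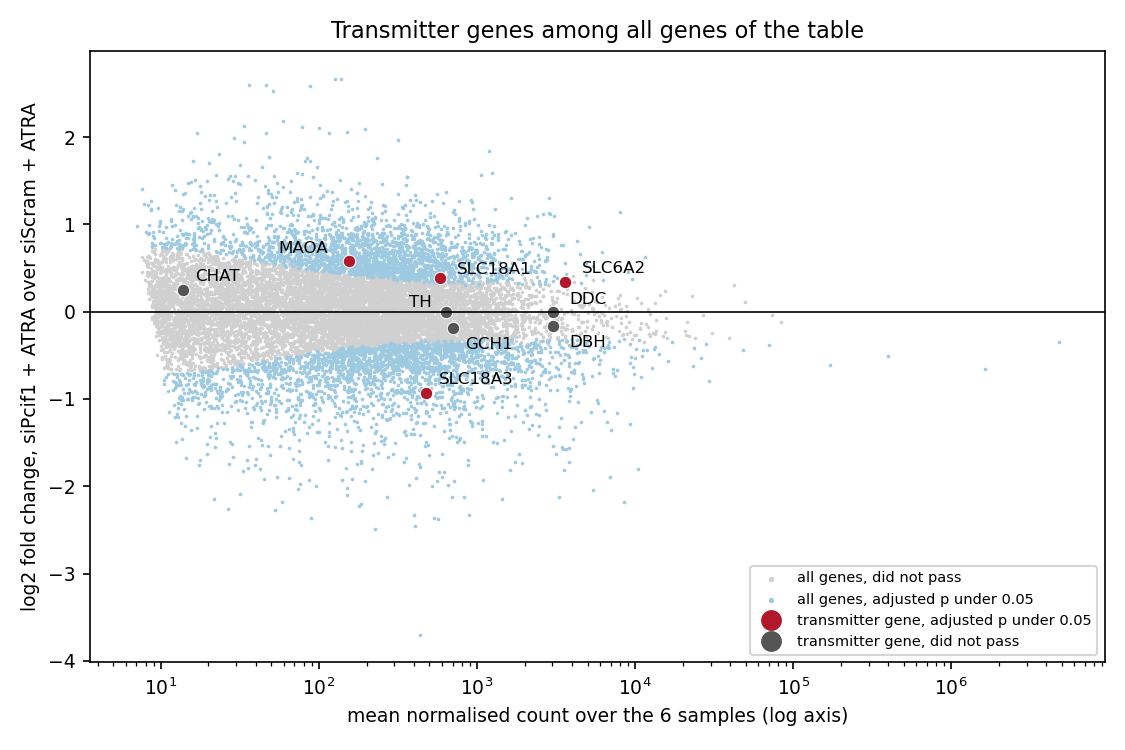
Log2 fold change against the mean normalised count over the 6 samples (log axis) for all 13885 genes, with the 9 transmitter genes labelled. SLC6A2, DBH and DDC lie between 3011 and 3587 normalised counts, CHAT at 13.8, and SLC18A3, at -0.93, is the lowest of the 9.

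Levels of the 9 genes differed far more than the groups did. Per kilobase of annotated exons, the mean normalised count was 960 for DDC, 798 for DBH, 657 for SLC6A2, 237 for GCH1, 197 for SLC18A3, 197 for TH, 149 for SLC18A1, 28.1 for MAOA and 3.69 for CHAT. DDC, DBH and SLC6A2 thus formed the top of the range, above the 96th percentile of all genes on this scale. The order within the list depends on the length used: per kilobase of the main transcript SLC6A2 (1010) passed DBH (798), and TH (337) passed GCH1 (238). On the same scale SLC18A1 (212) passed SLC18A3 (197). No spread between samples accompanies these means, so whether neighbours in the order differ beyond it cannot be judged. Under both lengths MAOA and CHAT were lowest. The order also depends on the group: by the means implied for each group, SLC18A3 had 136 normalised counts per kilobase of exons with siPcif1 + ATRA, below SLC18A1 (169), against 259 with siScram + ATRA, above GCH1 (252). Over both groups pooled, the level of SLC18A3 exceeded that of CHAT by 53.5 times per kilobase of exons and by 35.1 times per kilobase of main transcript. Per kilobase of exons the implied ratio was 33.9 with siPcif1 + ATRA against 77.0 with siScram + ATRA. Both ratios divide by CHAT, whose mean was 13.8 and whose fold change had an SE of 0.29, so they are imprecise. The ratios also rest on fold changes that may be shrunken toward 0. Their difference was not tested.

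**Figure D3:**
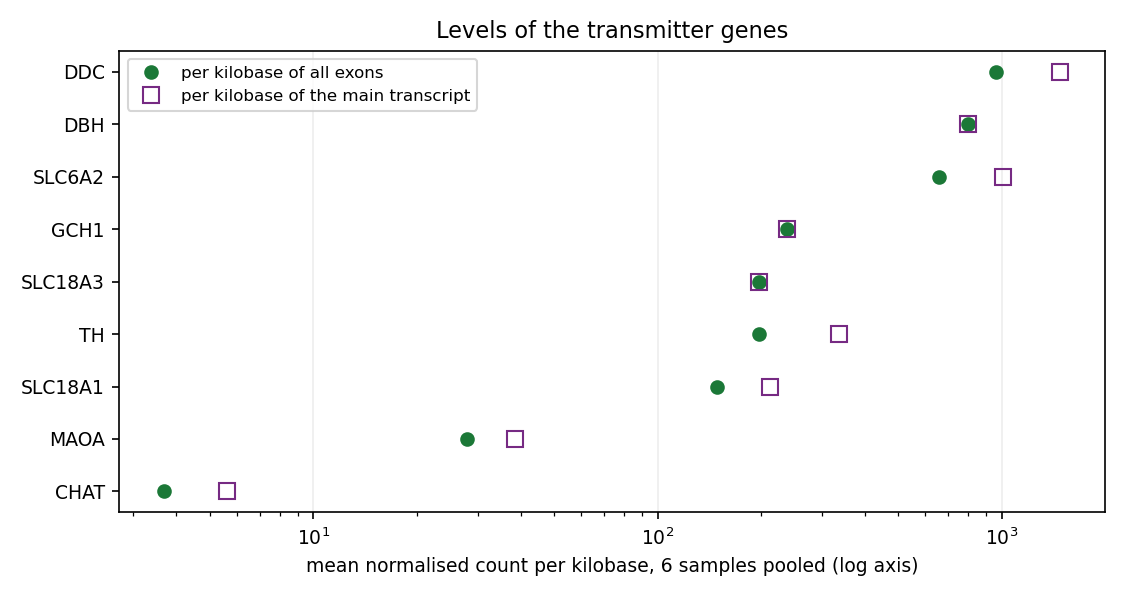
Mean normalised count per kilobase over the 6 samples (log axis), by the length of all exons (circles) or of the main transcript (squares). DDC, DBH and SLC6A2 lead on both scales, and CHAT is lowest at 3.69 and 5.62.

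Other genes of these pathways were taken from lists of 106 genes, of which 60 have a row. Per the authors' deposited table, 17 of the 60 rose and 10 fell by DESeq2, 45.0% in all against 34.0% of all genes, with a median log2 fold change of 0.06. Among the 8798 genes of any kind with a mean of at least 100, 41.7% passed after adjustment over those genes. Because the lists were chosen with earlier results of these data known, the 45.0% is not taken as a property of the listed genes. The values given for these genes below are log2 fold changes. The cofactor genes were mixed: of 7, QDPR rose and GCHFR fell. QDPR, which regenerates tetrahydrobiopterin, was at 0.77 (SE 0.18; adjusted p = 0.00026 by DESeq2) and GCHFR, the feedback regulator of GCH1, at -0.77 (SE 0.26; adjusted p = 0.0127 by DESeq2) per the authors' deposited table. With the trend removed QDPR (1.02) passed and GCHFR (-0.51) did not (recomputed DESeq2 adjusted p of 0.144). PCBD2, at -0.35 per the authors' deposited table, did not pass as deposited. It passed as lower with the trend removed (-0.54, recomputed DESeq2 adjusted p of 0.0128). PCBD1, at -0.14 per the authors' deposited table, missed the threshold.
Among 10 listed enzymes and helpers of monoamine metabolism, 3 rose and 3 fell by DESeq2, 60% in all against 34.0% of all genes. PNMT, which methylates noradrenaline to adrenaline, had the largest rise of all the pathway genes, at 1.58 (SE 0.22; adjusted p = 4.63e-11 by DESeq2) per the authors' deposited table. Its level with siPcif1 + ATRA was 299% of that with siScram + ATRA (interval 223 to 402%), at a mean of 78.6 normalised counts; per kilobase of exons this was 6.75% of the level of DBH. CYB561, the vesicle membrane protein that passes electrons on for DBH, was at 0.68 (SE 0.13; adjusted p = 3.03e-06 by DESeq2) and ALDH3A2, a fatty aldehyde dehydrogenase, at 0.70 (SE 0.16; adjusted p = 0.000175 by DESeq2) per the authors' deposited table. AKR1B1, the aldose reductase that reduces the aldehyde formed from noradrenaline, was at -1.34 (SE 0.14; adjusted p = 1.17e-20 by DESeq2) per the authors' deposited table. AKR1A1 and the DBH relative MOXD1 also fell, at -0.52 and -0.62 per the authors' deposited table; with the trend removed AKR1A1 (-0.23) lost its call (recomputed DESeq2 adjusted p of 0.229). ALDH2, a mitochondrial aldehyde dehydrogenase, was at -0.12 (adjusted p = 0.546 by DESeq2) per the authors' deposited table. DNAJC12, at -0.27 per the authors' deposited table, did not pass as deposited. It passed as lower with the trend removed (-0.44, recomputed DESeq2 adjusted p of 0.0447).
Of the other monoamine transporters 2 have a row, SLC10A4 at -0.23 and SLC29A4 at 0.24 per the authors' deposited table; 0 passed by DESeq2 and 0 had an unadjusted p under 0.05.

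The 2 cholinesterase genes differed in direction. ACHE, the acetylcholinesterase, was at -1.44 (SE 0.25; adjusted p = 1.93e-07 by DESeq2) and BCHE, the butyrylcholinesterase, at 0.62 (SE 0.18; adjusted p = 0.00378 by DESeq2) per the authors' deposited table. With the trend with GC, exon length and expression removed, ACHE stood at -1.18 and still passed, whereas BCHE stood at 0.40 and its call was lost (recomputed DESeq2 adjusted p of 0.0892). ACHE had a mean of 41.0 and BCHE of 324 normalised counts. The other 5 of the 7 listed genes of acetylcholine breakdown and choline uptake did not pass by DESeq2, with CHKA at -0.27 and SLC44A2 at -0.0029 per the authors' deposited table. Of 9 listed acetylcholine receptor genes, 3 rose and 0 fell by DESeq2, 33.3% in all against 34.0% of all genes. An unadjusted DESeq2 p under 0.05 was found for 4 of the 9. The rises were CHRNB4 at 0.60 (SE 0.15), CHRNA7 at 0.69 (SE 0.21) and CHRM3 at 0.40 (SE 0.16) per the authors' deposited table. With the trend removed CHRNB4 was the 1 receptor gene that passed, and CHRNA7 (0.36) and CHRM3 (0.12) lost their calls (recomputed DESeq2 adjusted p of 0.226 and 0.650); at an adjusted p under 0.1, 3 were higher and 1 lower. CHRNA7 has a partly duplicated copy in the human genome, so its value is uncertain. CHRNA3, the ganglionic receptor subunit with the highest mean of that list, was at -0.03 and CHRNB2 at 0.09 per the authors' deposited table. Of 3 listed adrenergic and dopamine receptor genes ADRA2A, an inhibitory receptor that dampens noradrenaline release, fell, at -1.08 (SE 0.28; adjusted p = 0.000686 by DESeq2) per the authors' deposited table. The mean of ADRA2A was 22.6 normalised counts, and its call was lost in the test against an absolute log2 change of 0.3. With the trend removed ADRA2A stood at -0.93 and still passed. ADRA2C and DRD2 were at -0.29 and 0.03 per the authors' deposited table, and neither passed.

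**Figure D4:**
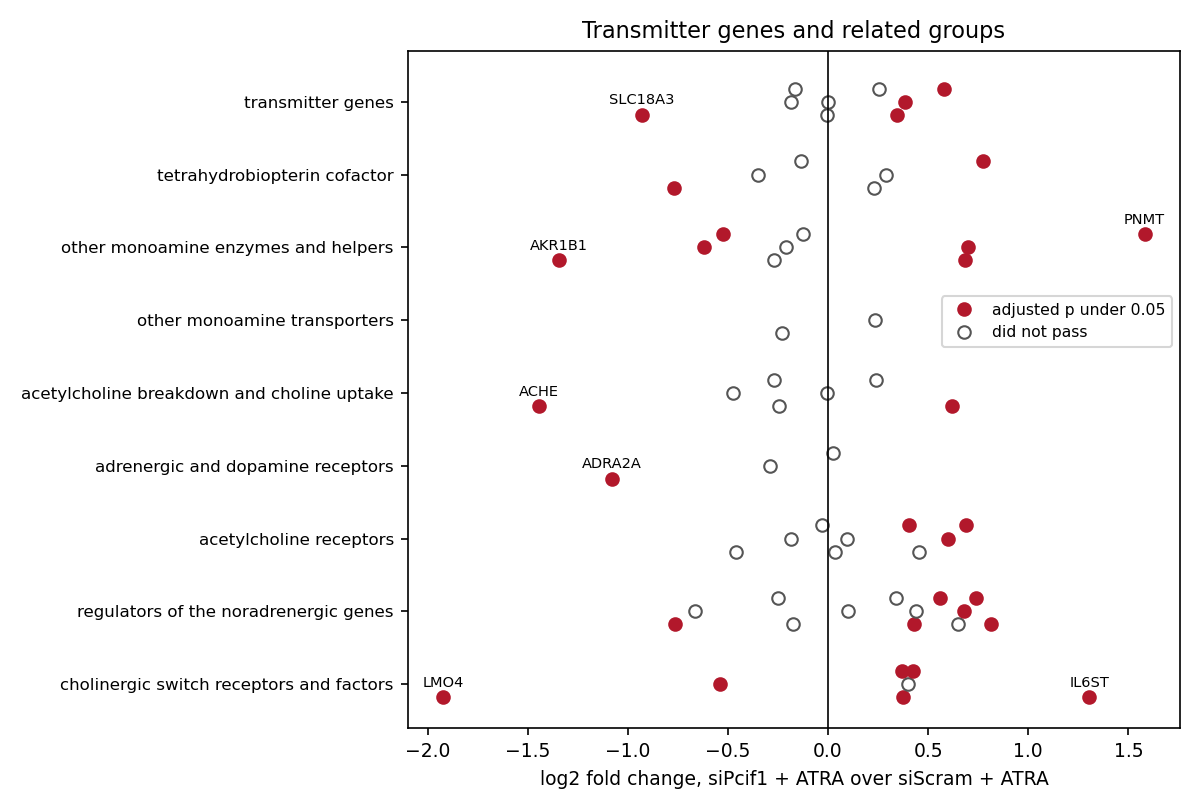
Log2 fold change (siPcif1 + ATRA over siScram + ATRA) of the listed genes, by group, apart from a few left out, with filled points for an adjusted p under 0.05. The transmitter genes run from -0.93 to 0.58, and PNMT at 1.58 and LMO4 at -1.92 mark the ends of the related groups.

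Transcription factors known to act on the noradrenergic genes changed in both directions, while TH, DDC and DBH did not pass as deposited. With the trend with GC, exon length and expression removed, TH passed as higher (0.38, recomputed DESeq2 adjusted p of 0.0419). DDC and DBH still did not pass under that step. Of 14 listed factors, 5 rose and 2 fell by DESeq2 per the authors' deposited table, 50% in all against 34.0% of all genes. Their median log2 fold change was 0.39 per the authors' deposited table, beside 0.0059 for all genes. PHOX2A, a homeodomain factor that acts on the DBH promoter, was at 0.10 (SE 0.16; adjusted p = 0.669 by DESeq2) per the authors' deposited table. ISL1 was at -0.77 (SE 0.14), HAND2 at 0.74 (SE 0.15) and GATA2 at 0.81 (SE 0.17) per the authors' deposited table. GATA3, HAND1 and CREB1 were the other rises, at 0.68, 0.56 and 0.43 per the authors' deposited table, and SOX4 was at -0.17 and did not pass. With the trend removed CREB1 (0.04) lost its call and PHOX2A (0.60) passed as higher, with recomputed DESeq2 adjusted p of 0.891 and 0.0013. TFAP2B (0.69) also passed as higher and REST (-1.08) as lower, with recomputed DESeq2 adjusted p of 0.0490 and 0.00172. REST had a mean of 14.9 normalised counts. In all, 6 of these factors were then higher and 3 lower.
Receptors and factors tied to the switch from noradrenergic to cholinergic sympathetic neurons also went both ways, with 4 of 8 listed up and 2 down by DESeq2. That is 75% in all against 34.0% of all genes. As the lists were chosen with earlier results of these data known, these shares are not taken as a property of the listed genes. At an adjusted p under 0.01 IL6ST was the 1 gene still called higher, and LMO4 and CNTFR were still called lower. IL6ST, the shared receptor subunit of the cytokines that drive the switch, was at 1.30 (SE 0.16), LIFR at 0.43 (SE 0.15) and STAT3 at 0.37 (SE 0.13) per the authors' deposited table. CNTFR, the ligand-binding subunit for ciliary neurotrophic factor, was at -0.54 (SE 0.16), and LMO4, an adaptor of LIM-domain transcription factors, at -1.92 (SE 0.17) per the authors' deposited table. GFRA2, at 0.40 per the authors' deposited table, did not reach the threshold. With the trend removed CNTFR (-0.18) and LIFR (0.0074) lost their calls and GFRA2 (0.59) passed, with recomputed DESeq2 adjusted p of 0.468, 0.980 and 0.0104. RET, the receptor for the glial cell line-derived neurotrophic factor family, was at 0.37 (SE 0.14) per the authors' deposited table.

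Markers of the line and of other cell types were read beside these changes. All 8 neuroblastoma and sympathetic markers have a row, among them STMN2 at a mean of 8104 and MYCN at 3078 normalised counts. MYCN, CHGB, HAND2 and GATA3 rose (4 of 8) and 1 of 8 fell by DESeq2 per the authors' deposited table. That is 62.5% in all against 34.0% of all genes. The remaining 3 did not pass, with GAP43 at -0.28, STMN2 at -0.13 and CHGA at 0.11 per the authors' deposited table. Of 8 Schwann and glial markers 3 have a row, with a summed mean of 237 normalised counts, and S100B rose, at 1.21 (SE 0.22) per the authors' deposited table. Of 11 mesenchymal markers 7 have a row, with a summed mean of 4435. VIM, PDGFRB and FN1 fell (3 of 7, or 42.9%), at -1.54, -0.94 and -1.10 per the authors' deposited table. The other 4 did not pass by DESeq2. CD44 was at -0.56, TWIST1 at 0.14, SNAI2 at 0.05 and COL1A1 at 0.04 per the authors' deposited table. The part of these marker changes in the values of the transmitter genes was not tested.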

How the data were processed

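RNA was measured in 6 samples of BE(2)-C cells, 3 per group. Per the labels' protocols, stranded poly(A)-selected libraries were made from DNase-treated RNA. Per the submitters' processing notes, the tools were STAR 2.7.10a, HTSeq and DESeq2 with bcl2fastq 2.20, cutadapt 3.7 and deepTools, on hg38; their roles, settings, annotation and strand setting are not stated in those notes.

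One DESeq2 table of the authors was used. Per the file headers, the authors deposited a mean of normalised counts (a signal), a log2 fold change with its SE, a Wald statistic (a score with no fixed range), a p-value and an adjusted p-value for each of 13885 genes. The adjusted p-values equalled a Benjamini-Hochberg adjustment over these genes. Depth per library is unknown, and precision was read from the SE (0.119 to 0.295, median 0.181). The upper limit of the SE fits fold changes shrunken under a normal prior, which the header does not state, so changes may be understated.

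The 10 genes and the other lists were chosen with earlier results of these data known. Identifiers without version were matched to GENCODE 29 (13877 of 13885), which gave coordinates, exon lengths, the main transcript (best by APPRIS, basic tag, support level and length) and its GC content. A gene was called at an adjusted p under 0.05. Intervals are 95% normal intervals from the SE. Means implied for each group were computed from the mean and the fold change, with equal group sizes. Named genes were all members, PCIF1, up to 4 called genes per list by adjusted p and up to 2 uncalled genes of highest mean. AKR1A1, MOXD1, LIFR, RET, GATA3, HAND1, CREB1, TFAP2B, REST, PCBD2 and DNAJC12 were added to spell out counts or levels, after their values were seen. So were the marker genes STMN2, MYCN, S100B, VIM, PDGFRB, FN1, CHGB, GAP43, CHGA, CD44, TWIST1, SNAI2 and COL1A1. A few listed genes enter the counts but are not reported here. Adjusted p-values called recomputed were made by normal tests on the authors' DESeq2 fold changes, SEs or statistics, with a Benjamini-Hochberg adjustment. DESeq2 itself was not run again. The SEs were kept when the trend was removed, so the error of that fit is not counted. Trends with GC content, exon length and mean were removed by linear regression on cubic splines (5 degrees of freedom each; patsy 1.0.2). Alternatives were other thresholds, a minimum mean of 100, centring, a test against 0.3, statistics scaled to their robust SD, the removed trend and fold changes estimated without shrinkage. The steps were tested on simulated data. Computation used Python 3.11.15 with scipy 1.17.1, matplotlib 3.10.9, numpy 2.4.6 and pandas 2.3.3.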

Additional observations from a re-analysis of the deposited data

How the results depend on the processing

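Over 71 pairs of a transmitter gene and an alternative, 56 kept direction and side of the threshold, 11 were no longer past it, 1 was newly past it and 3 changed sign. Much of this was fixed by how the alternatives were made. The other thresholds, the minimum mean, the test against 0.3 and the scaling kept the deposited fold changes, so no sign could change there. The estimate without shrinkage kept the signs and the adjusted p-values, so it could move no call. The genes counted as higher numbered 3 as reported, 1 (MAOA) at an adjusted p under 0.01, 0 when tested against a log2 change of 0.3 and 0 with the statistics scaled to their robust SD; the 1 gene counted as lower became 0 under that scaling and under no other alternative run. At the threshold of 0.01 SLC6A2 (0.35) and SLC18A1 (0.39) lost their calls, and in the test against 0.3 so did these and MAOA (0.58). Scaling to the robust SD kept the fold changes of SLC6A2 (0.35), SLC18A1 (0.39), SLC18A3 (-0.93) and MAOA (0.58) and gave recomputed DESeq2 adjusted p of 0.963, 0.956, 0.528 and 0.905. Centring moved SLC6A2 to 0.34, where its call was lost, and TH to -0.0048. With the trend with GC, exon length and expression removed, DDC and DBH turned to 0.24 and 0.23, TH reached 0.38 and passed, and MAOA at 0.44 did not. Estimated without shrinkage, SLC18A3 was at -1.03, MAOA at 0.64, SLC18A1 at 0.41 and SLC6A2 at 0.37; CHAT could be 0.42 or 0.62, since its SE is close to the maximum. Of the other pathway genes 17 were higher and 10 lower as reported, 15 and 10 with the trend removed, though not all the same genes, 5 and 5 when tested against 0.3, and 0 and 2 under the robust SD; with a minimum mean of 100 the lower ones numbered 6, since fewer genes were tested. Over all genes, 135 passed under the robust SD, 1260 against 0.3 and 3485 with the trend removed, where 4716 passed as reported. The cause of these differences was not tested. No paired analysis was possible because values per library were not analysed here, and for the same reason no replicate could be left out. Depth per library is unknown; CHAT, with the lowest mean of the 9 (13.8), has the widest interval.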
